A study of Homo sapiens with 4 samples.

Results

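The genes RAB27A, MLPH, MYO5A, SYTL2, RAB38, RAB32, RAB17 and MREG, 8 members of the machinery that moves melanosomes, were examined for genomic sites of the T-box transcription factor TBX3. They were chosen by name, and every peak whose deposited nearest gene was 1 of these 8 was taken at any distance, which gave 29 of 32479 peaks in replicate 1 and 43 of 40494 peaks in replicate 2. The peaks come from ChIP-seq, the sequencing of DNA precipitated with a protein, in 501mel, an established human melanoma cell line. Both ChIP samples came from cells with HA-tagged TBX3 (TBX3-3xHA), precipitated with an antibody to the HA peptide. There were also 2 input samples of the same line, not analysed here, so no background level stands beside the peaks. The samples share 1 cell line, growth medium and formaldehyde cross-linking, and no treatment or time point separates them. How the tagged protein was expressed, and beside how much untagged TBX3, is not given in the sources used here. Nothing says that the replicates were separate cultures, so agreement between them may be technical. Read depth is unknown.

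Melanosomes, the pigment organelles of melanocytes, travel along microtubules and are then held in the actin network at the cell edge before transfer to keratinocytes. RAB27A, a small GTPase on the melanosome membrane, recruits melanophilin (MLPH), which binds the actin motor myosin Va (MYO5A), and loss of any of the 3 causes Griscelli syndrome, with diluted pigmentation. SYTL2 encodes Slp2-a, another RAB27A effector, which anchors melanosomes at the plasma membrane. RAB38 and RAB32 are related GTPases that carry melanin-synthesis enzymes to immature melanosomes. RAB17 acts in recycling endosomes and in melanosome release, and MREG encodes melanoregulin, the dilute suppressor, which acts in melanosome distribution.

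Each peak is a summit of a single base, with a score deposited by the authors whose scale is not stated. Scores are printed as deposited, and peaks were ranked by score within their own list. Score levels are not compared between the lists. A rank is also given as a percentage of the list, with low values for high scores. Summits of the 2 lists that were each other's nearest and lay within 200 bp are called shared regions. Coordinates are on hg38.

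Shared regions lay at 7 of the 8 genes, and 5 of the 8, RAB27A, MLPH, MYO5A, SYTL2 and RAB38, had one within 10 kb of the transcription start site (TSS) used in the lists. Among 19974 protein-coding genes 28.6% had a shared region nearest to them at any distance and 10.1% had one within 10 kb. These 5 genes are long. The shortest of them, MLPH, spans 68.9 kb, against a median of 24.2 kb over protein-coding genes, and 16.2% of the 4765 genes at least as long as MLPH had a shared region within 10 kb. This length limit was taken from members that have such a region. Of the members without one, MREG spans 94.8 kb, RAB17 16.4 kb and RAB32 11.1 kb. RAB17 had no shared region, and those of RAB32 and MREG lay farther from the listed TSS. When the RefSeq starts of the same gene were added, a step chosen after seeing the data, MREG was within 10 kb too and the count was 6 of 8, against 10.3% of protein-coding genes. These genes were picked with earlier results of the same peak lists known, so the counts describe them and were not tested.

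RAB27A and MLPH each had a shared region inside a RefSeq promoter window, and these windows are shown because they are the member sites whose sequence was at hand. RefSeq windows (GRCh38.p14) of 250 bases before to 50 after a start were given for 6 of the 8 genes, 13 windows in all. The MLPH window at chr2:237487001-237487280 (plus strand) held the summits of both replicates, 1 base after and 16 bases before the RefSeq start. The RAB27A window at chr15:55270370-55270649 (minus strand) held summits 139 bases before the start in replicate 1 and 77 bases before it in replicate 2. Both sequences run from 250 bases before the start to 30 bases into the transcript, in lower case, with motif matches in capitals.
MLPH: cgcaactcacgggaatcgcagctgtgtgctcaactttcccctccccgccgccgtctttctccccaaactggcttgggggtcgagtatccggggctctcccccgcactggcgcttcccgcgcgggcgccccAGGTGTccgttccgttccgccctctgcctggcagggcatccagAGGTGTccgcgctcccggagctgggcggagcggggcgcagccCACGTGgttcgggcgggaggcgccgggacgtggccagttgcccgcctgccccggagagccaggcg
RAB27A: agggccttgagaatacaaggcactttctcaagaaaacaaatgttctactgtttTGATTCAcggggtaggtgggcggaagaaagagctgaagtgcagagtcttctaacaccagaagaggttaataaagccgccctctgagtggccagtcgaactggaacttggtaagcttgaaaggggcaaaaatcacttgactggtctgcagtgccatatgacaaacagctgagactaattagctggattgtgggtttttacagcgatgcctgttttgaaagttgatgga

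The capitals mark matches on either strand to AGGTGT, the core of the T-box motif, to CACGTG and CATGTG, which the melanocyte factor MITF can bind, and to TGANTCA, an AP-1 motif. In the MLPH window AGGTGT stood 120 and 77 bases before the start, and CACGTG 35 bases before it, 33 bp from the replicate 1 summit and 16 bp from the replicate 2 summit. The RAB27A window held only TGATTCA, 197 bases before the start. The longer T-box motif AGGTGTGA was in neither window. It was found in 1 of the 13 member windows, 241 bases before a downstream RAB27A start where neither list had a summit, at chr15:55237614-55237643 (minus strand), shown as the member window with the longer motif.
RAB27A, downstream start: cttagagccAGGTGTGAtgctgtgatatga

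Over all 35116 RefSeq windows, 0.980% held AGGTGTGA, 11.4% AGGTGT (which AGGTGTGA contains), 7.26% CACGTG, 11.1% CATGTG and 7.71% TGANTCA. Among the 404 windows with the replicate 1 summit of a shared region these shares were 2.48%, 14.4%, 17.6%, 20.0% and 14.6%. AGGTGT was searched after the windows had been read.

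The genes differed widely in how many summits they had. SYTL2 had 10 summits in replicate 1 and 11 in replicate 2, and 8 shared regions, and 0.836% of protein-coding genes had at least 8. RAB38 had 7 and 13 summits and 6 shared regions, a number that 1.62% of genes reached. MYO5A had 5 and 8 summits with 4 shared regions, and RAB27A had 3 and 2 summits with 2 shared regions. MLPH had 1 summit in each list and RAB32 had 1 and 5, each with 1 shared region. MREG had 2 summits in each list, 1 of them shared, and RAB17 had 0 and 1. The spans of RAB38 (371.7 kb), MYO5A (221.8 kb), SYTL2 (160.6 kb) and RAB27A (116.2 kb) do not follow this order.

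**Figure D1:**
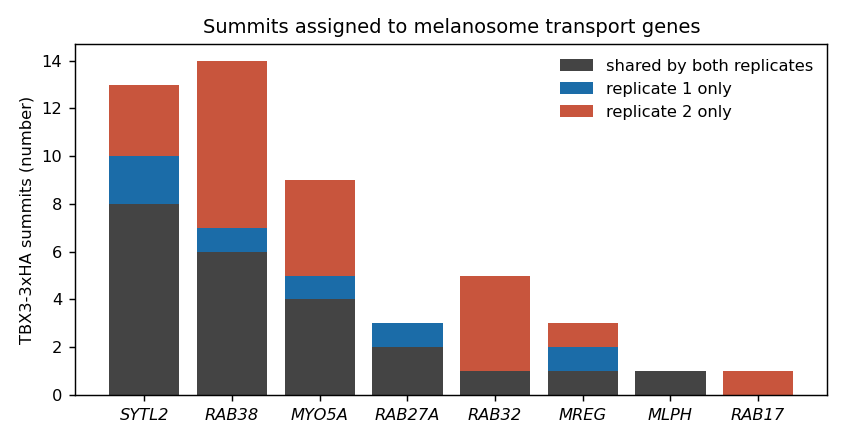
Number of TBX3-3xHA summits (vertical axis) with each of the 8 genes as nearest gene, stacked as shared by both replicates (grey), in replicate 1 only (blue) and in replicate 2 only (red). SYTL2 has 8 shared regions and RAB38 has 6, while the summit of RAB17 is in replicate 2 alone.

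Of the member peaks, 23 of 29 in replicate 1 had a partner in the other list (79.3%, 95% Wilson interval 61.6% to 90.2%), against 69.9% of all replicate 1 peaks. In replicate 2 it was 23 of 43 (53.5%, 38.9% to 67.5%), against 56.1% of all. The value of the whole list lay within the counting interval in both replicates. That interval treats peaks as independent, but SYTL2 gave 10 and 11 of them and RAB38 gave 7 and 13, in replicates 1 and 2. The 2 summits of a member region lay 37 bp apart at the median, with a range of 0 to 100 bp, and the median over all 22702 shared regions was 28 bp. No member summit was near the limit of 200 bp, because the closest summits that were not paired lay 497 bp from the other list (RAB38, in replicate 2).

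Member summits without a partner mostly had low scores. Their median score was 8.02 in replicate 1 (range 3.34 to 53.2) and 7.26 in replicate 2 (2.58 to 29.0). The shared member summits had medians of 23.5 and 41.6. Of the unshared summits, 4 of 6 in replicate 1 and 15 of 20 in replicate 2 scored below the median of their whole list, which was 12.4 and 13.9. The same share over all unshared peaks was not computed, so these counts are not read as particular to the members. In 1 higher-scoring decile of each list, given below, 97.4% (replicate 1) and 88.4% (replicate 2) of peaks were shared, against 69.9% and 56.1% of all peaks.

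RAB27A had the strongest site of the group. In replicate 1 its summit at 55267531 on chromosome 15 scored 245 (rank 368), and in replicate 2 the summit at 55267540 scored 259 (rank 774). Both fell in intron 1 of 6, 2755 bp and 2746 bp downstream of the nearest TSS, and within the highest 1.13% and 1.91% of their lists. Ordered by the sum of the 2 ranks of their strongest region within 10 kb, RAB27A stood at place 58 of the 2024 genes with such a region. The second region, 3007 bp away, was the promoter site printed above, with summits at 55270538 (score 97.6, rank 2110) and 55270476 (score 148.8, rank 2001). The 2 regions were assigned to different RAB27A start sites, 108 bp apart. A further summit, at 55268475 in replicate 1, scored 5.12 and lay 935 bp from the closest replicate 2 summit.

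The 3 protein-coding genes outside the group whose strongest region within 10 kb had the most similar ranks to RAB27A over the 2 replicates were SCARB1, DUSP6 and KIFC3. The measure was the Euclidean distance of log2 ranks, 0.10 for SCARB1 (ranks 347 and 799), 0.27 for DUSP6 (386 and 927) and 0.29 for KIFC3 (451 and 780). SCARB1 encodes a lipoprotein receptor, DUSP6 a phosphatase that acts on ERK and KIFC3 a kinesin. The DUSP6 and KIFC3 summits were annotated to promoters, 63 bp downstream and 184 bp upstream of a TSS, and that of SCARB1 was intergenic, 5409 bp upstream.

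**Figure D2:**
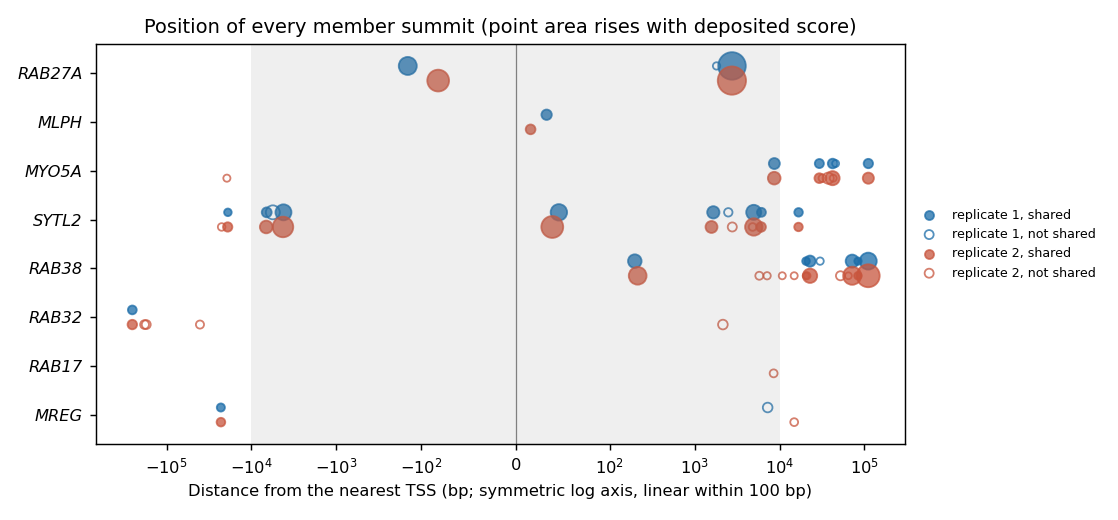
Distance of every member summit from its nearest TSS in bp (horizontal, symmetric log axis, negative upstream) for each gene, with replicate 1 in blue and replicate 2 in red, filled where shared, and point area rising with the deposited score. The grey band marks 10 kb to either side, which holds filled points for RAB27A, MLPH, MYO5A, SYTL2 and RAB38 and open points alone for RAB32, RAB17 and MREG.

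MLPH and MYO5A, the partners of RAB27A, had weaker sites. The MLPH region, shown above by sequence, had its summit at 237487252 on chromosome 2 with a score of 23.5 in replicate 1 (rank 10053) and at 237487235 with a score of 19.3 in replicate 2 (rank 16087). It was annotated to the promoter, 33 bp and 16 bp downstream of the nearest TSS, and it was the sole summit of either list with MLPH as nearest gene. Its place in the list was lower in replicate 2 (39.7%) than in replicate 1 (31.0%). MLPH stood at place 1257 of the 2024 genes.

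MYO5A had no promoter-annotated summit in either list, and its 4 shared regions were spread over 102.6 kb of its introns. The closest to the TSS had summits at 52520364 (score 28.0, rank 8506) and 52520393 (score 41.6, rank 8790) on chromosome 15, 8686 bp and 8657 bp downstream, in intron 1 of 40. Another 2 shared regions lay in the same intron. The region 42254 bp from the TSS stood at 37.3% of the list in replicate 1 (score 18.4) and at 16.7% in replicate 2 (score 54.7). At 29463 bp, within an L1 element, the scores were 14.9 and 19.2. The fourth was 111306 bp downstream in intron 4, within an LTR of the MaLR family, with scores of 16.6 and 29.0. A replicate 2 summit at 52491607 in intron 1 scored the same 29.0 and had no partner, its closest replicate 1 summit being 4811 bp away. Another replicate 2 summit lay outside the gene, at 52548544, 19494 bp upstream of the TSS in the 3′ UTR of ARPP19, with a score of 4.01 and no partner. In the decile of the replicate 2 list that holds the unshared summit at 52491607, 88.4% of peaks were shared.

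The lists name the nearest TSS, not the gene that holds a summit. Inside the MYO5A span 2 more shared regions had MYO5C, a related myosin gene, as nearest gene. The summit of the first was at 52337644 in both lists, in a MYO5A intron, with scores of 15.8 and 50.0, and the second, also intronic, had scores of 12.4 and 10.6. No other member span held a summit named for another gene.

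SYTL2 had the most shared regions of the 8 genes, 8 in all, and 3 start sites served as their nearest TSS. These had 1, 5 and 2 of the regions. Each summit is assigned to its nearest TSS, so this division comes from the annotation and does not show clustering at the starts. The middle TSS, on chromosome 11, was nearest to 5 shared regions, and 4 of them lay within 10 kb of it, over 10.3 kb. The strongest of these had summits at 85762268 (score 74.0, rank 3047) and 85762322 (score 131.1, rank 2403), 4199 bp and 4253 bp upstream of that TSS. On the other side, 4964 bp downstream, summits at 85753105 (score 64.0, rank 3629) and 85753099 (score 90.1, rank 3990) were next in rank. Summits at 85756410 (score 38.4, rank 6276) and 85756490 (score 35.3, rank 10015) lay 1659 bp downstream in replicate 1. Those at 85751947 (score 14.1, rank 14904) and 85752002 (score 18.3, rank 16669), 6122 bp downstream, were the weakest within 10 kb. The fifth, 18965 bp upstream, stood at 75.2% of the list in replicate 1 (score 6.43) and at 44.2% in replicate 2 (score 16.5).

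A downstream SYTL2 promoter held the gene's strongest site. Its summits at 85719304 and 85719311 lay 46 bp and 39 bp after a TSS that is 38.7 kb downstream of the middle one, and scored 79.1 (rank 2786) and 150.3 (rank 1976). At the third TSS, 53.1 kb upstream of the middle one, summits 6615 bp upstream at 85817774 (score 20.2, rank 11259) and 85817861 (score 41.9, rank 8634) formed a region, and one in an Alu element 16768 bp downstream scored 11.6 and 11.4. The region at 85817774 was annotated as intergenic but lies inside the RefSeq span of SYTL2. Altogether 6 of the 8 regions were within 10 kb of a TSS, which 0.03% of protein-coding genes matched or exceeded. A gene with several annotated starts has more sequence within 10 kb of one, and the part this plays in the count was not tested.

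SYTL2 also had the highest-scoring member summit without a partner. In replicate 1 the summit at 85763672 scored 53.2 (rank 4477), and the closest replicate 2 summit, that of the neighbouring region, was 1350 bp away. In that decile of the replicate 1 list 97.4% of 3304 peaks were shared.

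**Figure D3:**
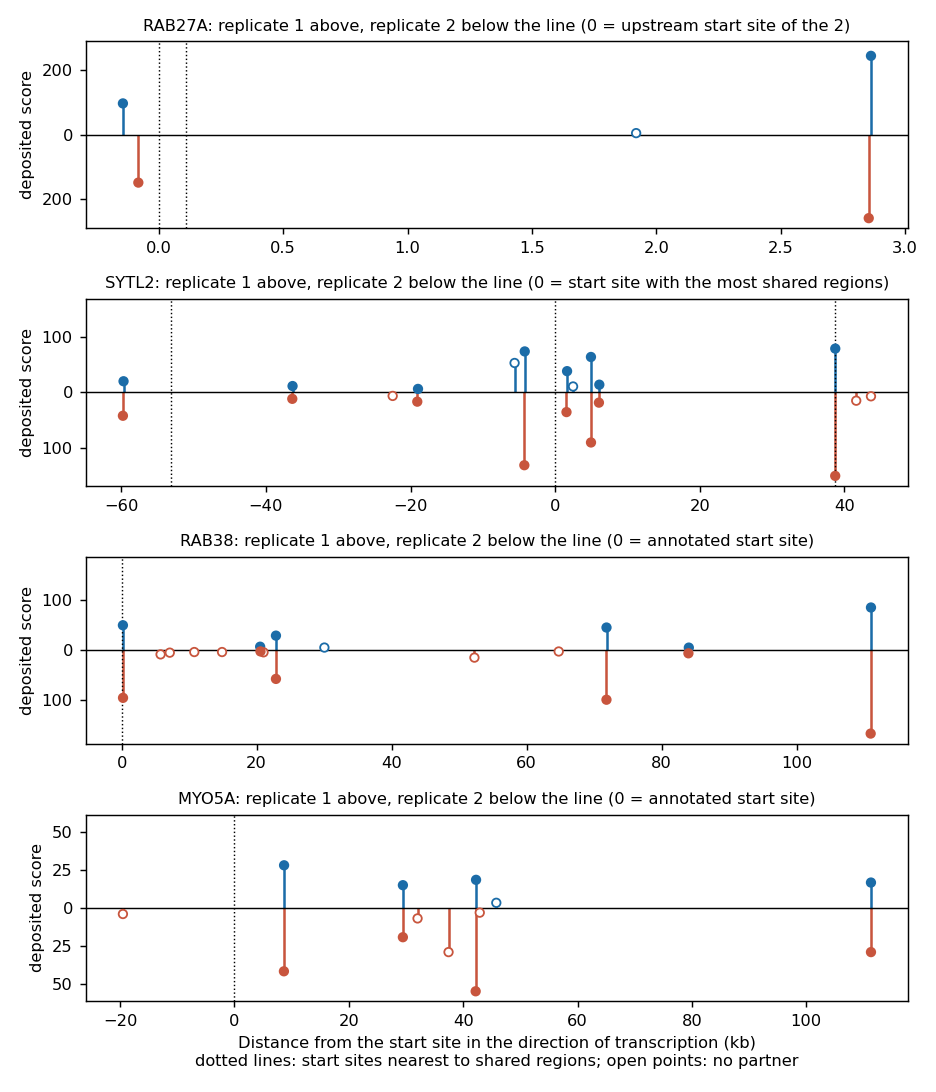
Deposited scores (vertical, replicate 1 above and replicate 2 below the line) against distance from a start site in kb in the direction of transcription, for the 4 genes with more than 1 shared region. Filled points are shared and open points are not. RAB27A has 2 tall sites 3007 bp apart, and the tallest RAB38 site is 111 kb from its start. Dotted lines mark the start sites nearest to shared regions, of which SYTL2 has 3.

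RAB38 had a site at its start and stronger or similar ones far downstream. In exon 1 of 3, summits at 88175270 and 88175254 on chromosome 11, 197 bp and 213 bp from the TSS, scored 49.6 (rank 4865) and 94.8 (rank 3740). Its strongest region was 111019 bp downstream of the TSS, with summits at 88064448 (score 84.9, rank 2534) and 88064494 (score 165.9, rank 1725). A region 71839 bp downstream scored 45.1 and 98.5. Both distant regions were annotated as intergenic, but they lie inside the RefSeq span of RAB38, and a region in intron 1 with its summit at 88152598 in both lists scored 29.0 and 57.1. All 4 of these regions had a higher place in the list in replicate 2 than in replicate 1.

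Both distant RAB38 regions, 39.2 kb apart, fell in LTR elements of the same type, MLT1J2, in both lists. Of all 22702 shared regions, 14 were in an MLT1J2 element in both lists (0.0617%). This was singled out after the annotation had been read. Of the 23 member regions, 8 lay in an annotated repeat, the same one in both lists, against 38.6% of all shared regions, and 4 lay in LTRs of the MaLR family, against 4.37% of all. The 4 are the MLT1J2 regions of RAB38 and single regions nearest to MYO5A and RAB32.

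The remaining RAB38 sites were weak. A region in an ERV1 element scored 5.12 and 6.22, and a region in an L1 element scored 6.95 in replicate 1 and 2.46 in replicate 2, where it was near the end of the list (99.3%). In addition, 7 summits appeared in replicate 2 alone, with scores of 2.58 to 14.8, and 1 in replicate 1 alone, with a score of 5.22. Of those in replicate 2, the 2 within 10 kb of the TSS scored 4.90 and 8.35.

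RAB32, RAB17 and MREG had no shared region within 10 kb of the TSS used in the lists. At RAB32, a summit of replicate 2 at 146545843 on chromosome 6, 2151 bp downstream of the TSS in intron 1 of 2, scored 18.5 (rank 16635), and replicate 1 had none within 123051 bp. RAB17 lies 19.0 kb from MLPH, and its only summit, at 237582606 on chromosome 2 in replicate 2, was in intron 2 of 5, 8520 bp from the TSS, and scored 8.15 (rank 28148).

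At MREG each list had a summit in intron 1 of 4, but at different places. That of replicate 1 scored 18.4 and lay 7246 bp from the TSS, and that of replicate 2 scored 7.62 and lay 14884 bp from it. The shared MREG region had summits at 216036575 and 216036531 on chromosome 2 with scores of 9.28 (rank 19780) and 12.2 (rank 21630), 22952 bp upstream of the TSS used in the lists. From an upstream MREG start in RefSeq, at 216034096, the summits lay 2479 bp and 2435 bp away, so by that start the region was within 10 kb. It is also inside the RefSeq span of the neighbouring gene PECR.

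Across the 23 member regions, 12 were annotated to a first intron and 14 to an intron of any number, 5 as intergenic, 3 to promoters and 1 to an exon. All 5 annotated as intergenic lie inside the RefSeq span of a protein-coding gene, RAB38, SYTL2 or PECR, and this was not counted over all shared regions. Over all shared regions, 12.6% were in a first intron, 39.7% in an intron, 53.2% intergenic, 2.52% at promoters and 1.00% in exons. The median distance to a TSS was 16768 bp for member regions and 51091 bp for all shared regions, and 11 of the 23 were within 10 kb, against 16.7% of all. Regions of one gene share its structure and are not independent of each other, and SYTL2 alone gave 6 of the 11.

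In score the member regions were spread over the lists. Their median place was 31.0% of the list in replicate 1 and 21.7% in replicate 2, where all shared regions had medians of 35.9% and 29.2%. Within the highest decile of both lists were 5 of the 23, and 12.4% of all shared regions. These 5 were both RAB27A regions, the distant RAB38 region, the SYTL2 promoter region and the SYTL2 region 4199 bp upstream of the middle TSS. In replicate 2, 18 of the 23 regions had a higher place than in replicate 1, with 66.9% of all shared regions moving the same way. The change was between -31.0 and 24.8 percentage points, with a median of -4.48 for member regions and -3.59 for all.

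**Figure D4:**
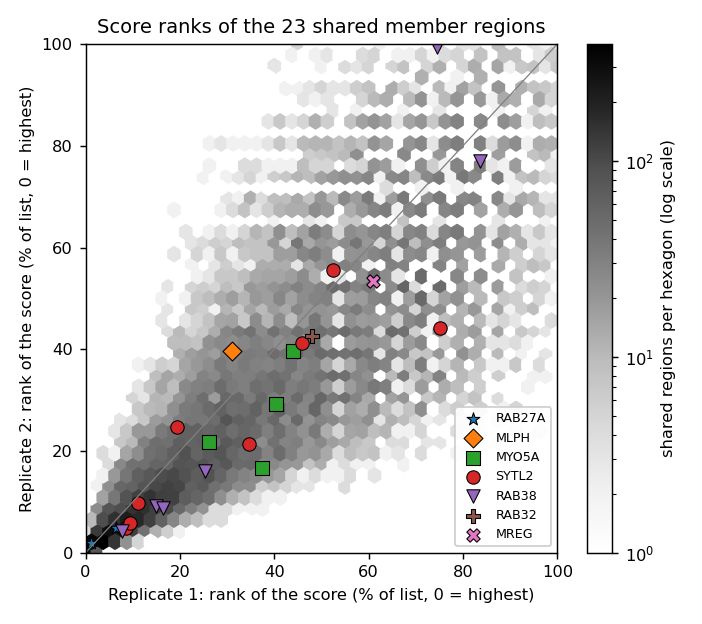
Rank of the deposited score as a percentage of the list in replicate 1 (horizontal) and replicate 2 (vertical), with 0 for the highest score, for the 23 member regions (coloured by gene) over all 22702 shared regions (grey hexagons, log scale). RAB27A lies in the corner of high scores in both lists, and 18 of the 23 points lie below the diagonal.

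A list of 36 other genes of melanosome transport was examined in the same way. Of these, 11 had a shared region at any distance (background 28.6%) and 5 had one within 10 kb (13.9%, background 10.1%). By role, these were 2 of 8 RAB27 relatives and effectors, 1 of 7 actin motors and nucleators, 0 of 9 genes of microtubule transport, 0 of 3 recycling and transfer RABs, and 2 of 9 regulators of RAB27, RAB32 and RAB38. The difference between these genes and the 8 members was not tested, since the members were picked with results known.

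The 5 genes were FMN1, HPS4, SYTL3, TBC1D10A and EXPH5. FMN1, which encodes the actin nucleator formin 1, had a promoter region 849 bp upstream of a TSS with scores of 56.4 and 61.3. It had 12 shared regions in all, 1 of them within 10 kb. At least 8 shared regions were found for 0.836% of protein-coding genes, and the share with at least 12 was not computed. HPS4, part of the exchange factor for RAB32 and RAB38, had one 1508 bp downstream with scores of 36.4 and 49.8. SYTL3, a relative of SYTL2, had one 3698 bp downstream in an intron (19.1 and 45.3). TBC1D10A, which inactivates RAB27A, had its stronger region 5919 bp upstream (11.3 and 42.3). That region was annotated to a 3′ UTR, in exon 16 of 16 of a transcript, and not to a promoter. EXPH5, a RAB27 effector, had one 457 bp downstream (7.82 and 9.09). MYRIP, an effector that links RAB27A to myosin VIIa, missed the limit of 10 kb but had the highest scores among these genes, 405.8 (rank 103) and 598.9 (rank 61), 12858 bp upstream of a TSS within an annotated intron. It was named after its values were seen.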

How the data were processed

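The submitters' processing notes name the build hg38 and FastQC 0.11.7, cutadapt 2.8, Bowtie2 2.3.5, MACS2 2.1.2 and SAMtools 1.9, without roles or parameters. Per the file headers, the authors annotated the summits of each ChIP sample with annotatePeaks.pl of HOMER, without pooling replicates. The score per peak was deposited by the authors, and the signed distance to the TSS and the nearest gene also come from the deposited annotation. The control and threshold of peak calling are not given in the sources used here, and a deeper library can yield more peaks.

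Groups came from sample titles. Summits were paired in Python 3.11.15 with pandas 2.3.3 when mutually nearest within 200 bp. The pairing code was run on simulated data of 10000 summits, where it found 100% of the planted partners and paired 0.102% of the rest. The planted partners were shifted by less than the 200 bp limit, so finding them was fixed by the setting. The simulated summits were fewer than those of the lists and placed at random, so 0.102% is not an error rate for these lists. A shared region takes its nearest gene and distance from replicate 1. Tied scores share the best rank. Background counts used the protein-coding genes of the RefSeq table (GRCh38.p14) on chromosomes 1 to 22 and X, and 12420 of 12468 gene identifiers in the lists matched that table. Intervals are 95% Wilson intervals (SciPy 1.17.1) and cover counting error only.

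Members, pathway genes and comparisons were chosen with earlier results of these data known, so no test was made. All 8 members were named, with full values for each member's strongest shared region and for those within 10 kb, except the distant RAB32 region, whose position and scores are not reported here. Also named were the pathway genes that reached the 10 kb limit. The 3 genes most like RAB27A had the closest log2 ranks over both replicates. Other sites given singly were chosen after their values were seen. The T-box motif was planned for every member region and was searched only in RefSeq promoter windows, since sequence of the other regions was not used here.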

Additional observations from a re-analysis of the deposited data

How the results depend on the processing

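Of 43 alternatives, 29 stayed within the counting interval or within 1.5 times the main count and 14 moved. Summits at the same base left 3.45% and 2.33% of member peaks with a partner in replicates 1 and 2, 1 member region, and 0 members and 0 pathway genes with a region within 10 kb, because this setting asks for identical positions. Within 50 bp the shares were 51.7% and 34.9% and there were 15 member regions, with the same count of 5 members. With scores at or above the list median, the replicate 2 share was 75.0% and the pathway count was 3. The pathway count was also 2 within 1 kb, 9 within 50 kb and 12 by RefSeq gene span with 10 kb added to either side. The count of members was 4 to 6 over the distance limits of 1, 5 and 50 kb, and 6 by the same extended gene span. With RefSeq starts beside the listed TSS, added after seeing the data, 6 members (with MREG) and 6 pathway genes had a region within 10 kb. Leaving out a replicate gave 6 to 7 members and 5 to 8 pathway genes, the highest values coming from replicate 2 alone. The share of all protein-coding genes was not computed for the other distance limits, the gene span or a single replicate. A wider limit can raise that share as well, so these counts are not read against a background. Among RefSeq windows of the members, 1 held AGGTGTGA, 2 held GGTGTGA, 2 held AGGTGT and 0 held AGGTGTGAA, settings chosen after seeing the data. The planned motif settings around summits were not run. No paired analysis was possible because the input samples were not analysed and no test compared groups. Depth is unknown, so a summit in 1 list alone may be below detection in the other.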
